A study of Homo sapiens with 82 samples.

Results

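PPARG ChIP-seq in HT29 cells, a colorectal adenocarcinoma line, gave 14249 sites after 2 h of rosiglitazone, and 2754 of them (19.3%) overlapped no peak of either 48 h replicate. These 2754 transient sites are described here. Overlapping peaks of both 2 h replicates (at least 1 bp shared) were joined into 1 site. The transient sites were selected on the peak calls of the 4 PPARG libraries, so their PPARG scores are a description with no test. Of the other 2 h sites, 7921 (55.6%) overlapped a 48 h site of both replicates and are called persistent. A further 3574 lay in between, and 3364 of these overlapped a peak of 48 h replicate 1 alone.

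PPARG is a nuclear receptor that binds DNA as a partner of a retinoid X receptor (RXR), and rosiglitazone is its agonist. The liver X receptors LXRA (gene NR1H3) and LXRB (gene NR1H2) also pair with RXR and are activated by GW3965. JunD is a subunit of AP1, a dimer of Jun and Fos proteins that is bound at many enhancers. Acetylation of lysine 27 of histone H3 (H3K27ac) marks active promoters and enhancers, and RNA polymerase II (RNAP2) marks transcribed genes and active elements. In the colon, PPARG is expressed in the epithelium and is known for its role in lipid metabolism and differentiation.

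Cells received 10 µM rosiglitazone or 10 µM GW3965, or the carrier DMSO alone. Some RNA-seq libraries came from cells given 10 µM T0901317, another LXR agonist, and entered the gene fits only. PPARG was profiled after 2 and 48 h of rosiglitazone, LXRA and LXRB after 2 and 48 h of GW3965, and JunD with DMSO alone. H3K27ac and RNAP2 were profiled with DMSO and with each drug at 24 and 48 h. For DMSO ChIP-seq libraries no hour is labelled. LXRA was pulled down through a FLAG tag in cells that carried an LXRA transgene and had been selected with G418, so its sites are not those of the endogenous protein. Each ChIP-seq group held 2 replicate libraries and each RNA-seq group held 4, all from 1 cell line. The labels do not say whether replicates were separate cultures, so the spread between them may be technical.

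The 34 peak files held no read totals, and their depth is unknown. The 2 h PPARG libraries had 24039 and 15804 peaks and the 48 h libraries 15378 and 8933. The track headers name a different control library for each 2 h replicate and 1 shared control for both 48 h replicates, so the time of treatment and the series of libraries and controls cannot be told apart. Peak numbers lay between 4555 and 14788 for LXRB, 18436 and 30953 for LXRA, 11069 and 13027 for JunD, 23015 and 31824 for H3K27ac, and 27249 and 35934 for RNAP2. In the RNA-seq libraries the epithelial genes EPCAM, VIL1, CDX2, KRT20, CEACAM5 and LGALS4 were all measured. They ranged from 6.43 CPM (read counts scaled by library size and its TMM factor) for CDX2 to 1505 CPM for KRT20. PTPRC and ADIPOQ reached at most 0.0245 and 0.0318 CPM, CD3E and DCN had no read, COL1A1 lay between 2.42 and 7.45 CPM and PLIN1 between 0.571 and 6.39 CPM, and PECAM1 was not found under that symbol.

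The number of transient sites depended on what was called at 48 h. With 48 h replicate 1 left out it was 6196, and with 48 h replicate 2 left out it was 2963. When the peaks of 1 replicate alone could not remove a site, 6328 sites counted as transient. When each PPARG library was limited to its 8933 highest peaks, 637 did. A site without a 48 h peak therefore means a site below the calling limit in these libraries, and binding under that limit was not measured.

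Transient sites carried weak PPARG peaks at 2 h. Their median score, which is minus 10 times the log10 of the MACS p, was 214 in replicate 1 and 153 in replicate 2, against 845 and 507 at persistent sites. The lower of a site's 2 scores had a median of 140 at transient, 178 at intermediate and 487 at persistent sites, where the lowest score in any PPARG file was 100. Only 19 transient sites (0.690%) reached 500 in both replicates, while 3870 persistent sites (48.9%) did. Replicate 1 had the higher score at 2018 of the transient sites (73.3%) and at 85.1% of the persistent sites. The sites were also narrower, with a median of 721.5 bp (interquartile range 630 to 858) against 956 bp (786 to 1233). The plot of scores shows how far the classes shared a range.

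**Figure D1:**
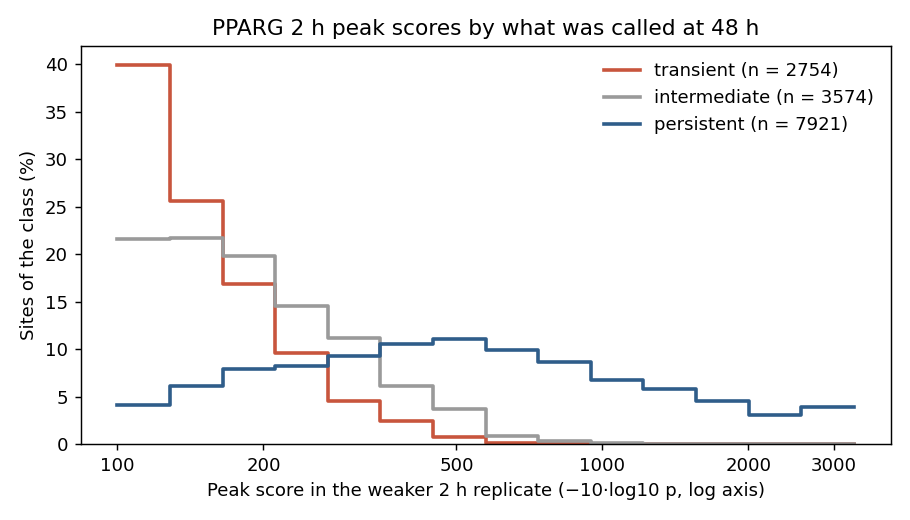
PPARG 2 h peak score of the weaker replicate (x axis, log scale) against the percentage of sites of each class (y axis) for transient, intermediate and persistent sites. Transient sites crowd at the calling limit of 100, with a median of 140, while persistent sites spread up to 3213 with a median of 487.

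The strongest transient sites were single places with high scores in both 2 h replicates. Positions are hg19 as deposited, on no strand, and no sequence or gene annotation of that build was used. The highest, chr2:157912394-157913361, scored 1567 and 1084, and its nearest 48 h peak lay 2360 bp away. It carried JunD, LXRB at 2 h and LXRA at both times. RNAP2 had a site there with DMSO, and RNAP2 and H3K27ac each had one after 24 h of GW3965. No H3K27ac or RNAP2 site of both replicates was called there with rosiglitazone. Replicate 2 alone had peaks of H3K27ac (score 154) and RNAP2 (398) after 24 h of rosiglitazone, and of RNAP2 (123) after 48 h. The site chr1:31922446-31923256 scored 1028 and 933 and overlapped LXRA and LXRB at both times of GW3965, and RNAP2 after 24 h of GW3965. At chr20:62908882-62909885, with scores of 891 and 863, no other factor or mark had a site, which needs peaks of both replicates. Peaks of 1 replicate only, with scores of 100 to 289, lay there for LXRA at both times and for H3K27ac with DMSO. They also lay there for H3K27ac at both times of GW3965 and for RNAP2 after 48 h of GW3965.

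Other strong members differed in what lay beneath them. The site chr8:82505047-82505942 scored 852 and 1055 and overlapped sites of LXRA at 2 h and RNAP2 at 48 h of GW3965 alone. Peaks of 1 replicate only lay there for RNAP2 with DMSO (score 176) and for H3K27ac and RNAP2 after 24 h of GW3965 (127 each). The site chr10:33623669-33625610 scored 834 and 850 and held H3K27ac and RNAP2 in all 5 conditions, with no LXR or JunD site. Peaks of 1 replicate only lay there for LXRB at 48 h (score 127) and for LXRA at 2 h (167) and 48 h (101). The site chr11:68147582-68149110 scored 1374 and 750, with sites of H3K27ac and RNAP2 both with DMSO and after 48 h of rosiglitazone. It also held sites of LXRA at 2 h and of RNAP2 after 24 and 48 h of GW3965. After 24 h of rosiglitazone each mark had a peak in 1 replicate only. H3K27ac had it in replicate 2 (score 598) and RNAP2 in replicate 1 (score 283), so no site was called.

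The sites at the limit of the rule were few. The transient site chr1:231962974-231963603, with scores of 340 and 161, ended 1 bp from a 48 h peak. The sites chr13:110447162-110447884 (1153 and 267) and chr18:4589850-4590722 (215 and 125) lay 7 and 15 bp from one. Among persistent sites, chr22:35776552-35777365 (218 and 179) shared at most 8 bases with a 48 h peak, chr1:200080932-200081969 (168 and 124) shared 19, and chr4:95394610-95395291 (394 and 192) shared 95. The median distance to the nearest 48 h peak was 25413 bp, 196 sites (7.12%) had one within 1 kb, and 18 within 100 bp.

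Transient sites were found on every autosome and on chromosome X, and made up between 15.9% of the 2 h sites on chromosome 13 and 26.2% on chromosome 22 (Wilson 95% interval 20.5 to 32.8). The nearest neighbouring 2 h site was a median of 24691 bp away, against 15404 bp for persistent sites. A neighbour within 10 kb was present for 33.0% of transient and 42.6% of persistent sites.

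Fewer transient than persistent sites held other factors. JunD sites overlapped 379 transient sites (13.8%, Wilson 95% interval 12.5 to 15.1) and 40.4% of persistent sites, beside 34% of all 2 h sites. In single JunD libraries the shares were 16.2 and 19.8% at transient and 43.0 and 47.7% at persistent sites. These intervals, here and below, cover counting error only, since sites of 1 library are not replicates of a condition.

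LXRB, profiled with GW3965, showed the same order. It overlapped 6.50% of transient and 24.7% of persistent sites at 2 h, beside 18.8% of all. After 48 h it overlapped 479 transient sites (17.4%, 16.02 to 18.9) and 45.2% of persistent sites, beside 38.5% of all. In single libraries, LXRB overlapped 19.5 and 7.48% of transient and 37.8 and 27.3% of persistent sites at 2 h, and 20.9 and 26.8% of transient and 49.8 and 52.6% of persistent sites at 48 h. At transient sites 2 h replicate 1 thus lay close to 48 h replicate 1, while 2 h replicate 2 lay lower. Of the transient sites, 354 (12.9%) had LXRB at 48 h but not at 2 h. Another 54 (1.96%) had it at 2 h but not at 48 h, and 125 (4.54%) at both. In this order, the shares were 21.5, 1.73 and 17.0% of all 2 h sites and 22.0, 1.53 and 23.2% of persistent sites. Against 2 h replicate 1 alone, 233 sites (8.46%) had LXRB at 48 h but not at 2 h, and against 2 h replicate 2 alone 340 (12.3%). The LXRB libraries had 7583 and 4555 peaks at 2 h and 11100 and 14788 at 48 h, and the part of these numbers in the shares was not tested.

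FLAG-tagged LXRA was the factor found most often at transient sites. It overlapped 45.5% of them at 2 h of GW3965 and 57.5% of persistent sites, beside 55.6% of all. After 48 h it overlapped 36.2% of transient and 61.4% of persistent sites, beside 57% of all. LXRA at 2 h but not at 48 h marked 484 transient sites (17.6%, 16.2 to 19.0) and 6.80% of persistent sites, beside 9.12% of all. LXRA at 48 h but not at 2 h marked 8.28% of transient and 10.7% of persistent sites, beside 10.5% of all. In the single libraries, the LXRA share at transient sites reached 60.7 and 46.3% after 2 h, and 37.5 and 53.3% after 48 h, so the times overlapped between libraries, whose peak numbers ran from 30953 and 19357 to 18436 and 29263. Sites with LXRA and no LXRB numbered 993 (36.1%), against 22.7% of persistent sites and 27.1% of all.

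**Figure D2:**
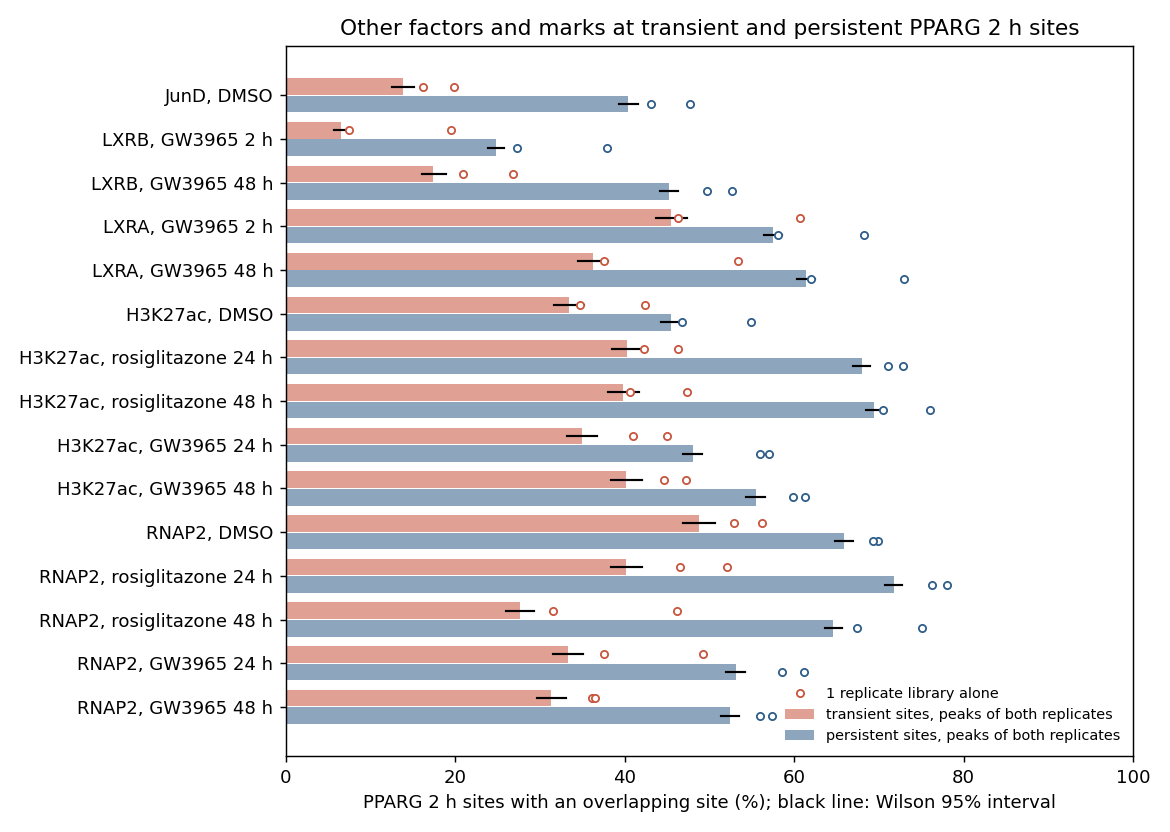
Percentage of transient and persistent PPARG 2 h sites (x axis) that overlapped a site of each factor or mark by condition (y axis). Bars use peaks of both replicates, black lines are Wilson 95% intervals and open circles are single libraries. JunD overlapped 13.8 and 40.4% of transient and persistent sites, and H3K27ac with DMSO 33.4 and 45.4%.

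H3K27ac was called at a minority of transient sites in every condition. With DMSO, 919 transient sites (33.4%, 31.6 to 35.2) held an H3K27ac site, against 45.4% of persistent sites and 42.8% of all. After 24 h of rosiglitazone the shares were 40.3% at transient, 67.9% at persistent and 60% at all sites, and after 48 h 39.8%, 69.4% and 60.9%. After 24 h of GW3965 they were 34.9%, 48.0% and 44.2%, and after 48 h 40.1%, 55.4% and 51.5%.

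Most transient sites with H3K27ac in DMSO kept it. Of the 919, 88.8% held it after 24 h of rosiglitazone and 89.6% after 48 h, and 86.9 and 88.0% after 24 and 48 h of GW3965. At persistent sites the shares kept with rosiglitazone were 97.1 and 98.5%, and at all 2 h sites 94.8 and 96.3%. The gain differed more. Of 1835 transient sites without H3K27ac in DMSO, 15.97% (14.4 to 17.7) held it after 24 h of rosiglitazone. This compares with 43.7% (42.2 to 45.1) of 4325 persistent sites and 34.0% of all 8149 such sites. After 24 h of GW3965 the shares of transient, persistent and all sites were 8.88, 14.5 and 12.3%. After 48 h they were 14.9, 45.2 and 34.3% with rosiglitazone and 16.1, 23.4 and 21.1% with GW3965. At transient sites the Wilson intervals of the drugs after 48 h overlapped (13.4 to 16.6 and 14.5 to 17.9). In 1307 transient sites (47.5%) no condition gave an H3K27ac site, against 24.7% of persistent and 31.1% of all 2 h sites. In 676 (24.5%) all 5 conditions did, against 38.3% of persistent and 34.4% of all 2 h sites.

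RNAP2 was present at more transient sites in untreated than in treated cells. It overlapped 1342 of them (48.7%) with DMSO, against 65.9% of persistent sites and 63% of all. After 24 h of rosiglitazone it overlapped 40.1% of transient, 71.7% of persistent and 64.3% of all sites, and after 48 h 27.6%, 64.6% and 55.6%. After 24 h of GW3965 the shares were 33.3%, 53.1% and 48.3%, and after 48 h 31.3%, 52.4% and 47.2%. Of the 1342, 68.5% held RNAP2 after 24 h of rosiglitazone and 52.8% (50.1 to 55.4) after 48 h. Persistent sites with RNAP2 in DMSO held it in 93.0 and 88.5%, and all such 2 h sites in 87.8 and 80.5%. With GW3965, 64.5 and 58.7% of transient sites held it, against 78.3 and 76.4% of persistent and 74.4 and 71.7% of all sites. RNAP2 with DMSO and at neither time of rosiglitazone marked 332 transient sites (12.1%) and 180 persistent sites (2.27%), beside 4.90% of all.

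These gaps depended on 48 h replicate 1 of PPARG. Without it, the transient minus persistent difference went from -26.7 to -13.2 points for JunD, from -25.2 to -7.97 for LXRA at 48 h, from -12.0 to -2.57 for LXRA at 2 h, from -12.0 to -3.96 for H3K27ac with DMSO and from -17.2 to -4.29 for RNAP2 with DMSO. For H3K27ac and RNAP2 after 24 h of rosiglitazone it went from -27.7 to -15.6 and from -31.6 to -14.4. With equal peak numbers in the PPARG libraries, it was -0.585 for H3K27ac with DMSO and -1.74 for LXRA at 2 h.

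Libraries are the replicates for a comparison of drugs. The labels list separate input libraries of H3K27ac and RNAP2 for DMSO, GW3965 and rosiglitazone. Where peaks were called against these, drug and control cannot be told apart. The tests exchanged libraries of 24 and 48 h freely. In single H3K27ac libraries, the share of transient sites with a peak was 34.7 and 42.4% with DMSO. It was 42.3 and 46.3% after 24 h of rosiglitazone and 47.3 and 40.6% after 48 h. It was 41.0 and 45.0% after 24 h of GW3965 and 47.2 and 44.7% after 48 h. The drugs overlapped throughout, at 44.1% ± 3.18 with rosiglitazone and 44.5% ± 2.56 with GW3965 (SD, n = 4 libraries each, 24 and 48 h together; two-sided exact permutation test, p = 0.886). Against DMSO, the rosiglitazone libraries were 5.56 points higher (exact permutation test, p = 0.4, where 2 against 4 libraries cannot go below 0.133).

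For RNAP2, the share in single libraries was 52.8 and 56.1% with DMSO. It was 46.6 and 52.1% after 24 h of rosiglitazone and 31.6 and 46.2% after 48 h. It was 49.2 and 37.5% after 24 h of GW3965 and 36.2 and 36.5% after 48 h. Both DMSO libraries were above all 8 libraries of the drugs. The drugs overlapped, at 44.1% ± 8.78 and 39.9% ± 6.26 (n = 4 each; exact permutation test, p = 0.457). The difference from DMSO was -10.4 points with rosiglitazone and -14.6 points with GW3965, both at p = 0.133, the smallest that this exact permutation test allows.

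The gap between transient and persistent sites within a library was wider in every rosiglitazone library than in every GW3965 library, for both marks. For H3K27ac the transient minus persistent share was -28.5 points ± 2.57 in the rosiglitazone libraries and -14.1 points ± 2.72 in the GW3965 libraries. The 2 drugs did not overlap, with values of -30.5 to -24.8 and -16.7 to -10.9 points (n = 4 each; exact permutation test, p = 0.0286, the smallest possible here, and 0.0571 after adjustment over the 4 tests of this kind). For RNAP2 it was -30.1 points ± 4.88 with rosiglitazone and -18.4 ± 4.36 with GW3965, again without overlap (exact permutation test, p = 0.0286, adjusted 0.0571). Neither difference passed 0.05 after adjustment. Both classes of site were chosen by PPARG peaks in rosiglitazone-treated cells. A wider gap with rosiglitazone therefore cannot be told apart from this choice of sites. In both marks the means at persistent sites differed more between the drugs (72.6 and 58.5% for H3K27ac, 74.2 and 58.2% for RNAP2) than those at transient sites.

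**Figure D3:**
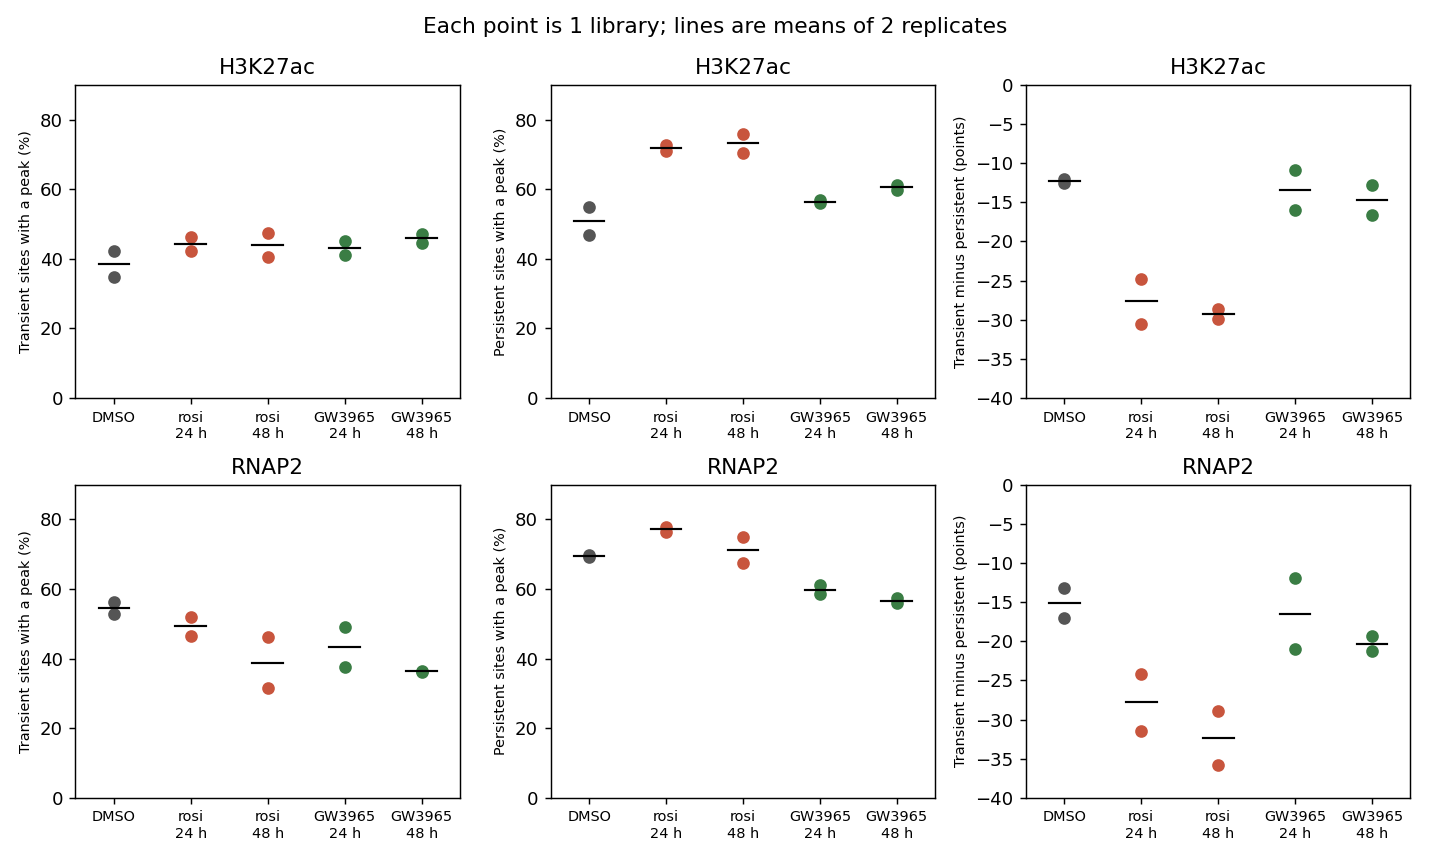
Share of transient sites (left), share of persistent sites (middle) and their difference in percentage points (right) for each H3K27ac and RNAP2 library by condition, where points are libraries and lines are means of 2 replicates. In the right panels all rosiglitazone libraries of H3K27ac lie at or below -24.8 points and all GW3965 libraries at or above -16.7 points.

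Since transient sites had lower 2 h scores, the shares were also compared within 5 classes of the weaker 2 h score, from 100 to 150 up to 500 and over. JunD at transient sites lay between 13.2% (of 1555 sites with 100 to 150) and 16.8% (of 149 sites with 300 to 500). At persistent sites of the same classes it was 23.7 and 37.3%, and it reached 47.7% in the highest class. That class held only 19 transient sites. JunD, LXRB at 48 h, LXRA at 48 h, and H3K27ac and RNAP2 at both times of rosiglitazone were lower at transient sites in 5 of 5 classes, and in each class the Wilson intervals of both kinds of site were apart.

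Other marks did not separate in this way. H3K27ac with DMSO was 29.6% at transient and 27.2% at persistent sites in the lowest score class and 44.3 and 41.6% between 300 and 500. RNAP2 with DMSO was 46.0 and 42.1%, and 65.1 and 62.4%. The intervals of H3K27ac and RNAP2 with DMSO or GW3965 were apart in 0 of 5 classes. LXRA at 2 h was higher at transient sites in 4 of 5 classes, with intervals apart in 2, for example 65.8 against 54.2% between 300 and 500. LXRB at 2 h was lower in 5 of 5 classes with intervals apart in 2. In 4 classes of site width, H3K27ac with DMSO was lower at transient sites in 0. It was higher there with intervals apart in 3, for example 53.4 against 37.2% between 800 and 1000 bp. H3K27ac after 24 h of GW3965 gave the same counts. H3K27ac was lower at transient sites in 3 of 4 width classes after 24 h of rosiglitazone and in 4 after 48 h. JunD, LXRB and LXRA at 48 h, and RNAP2 with rosiglitazone, were lower in 4 of 4.

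**Figure D4:**
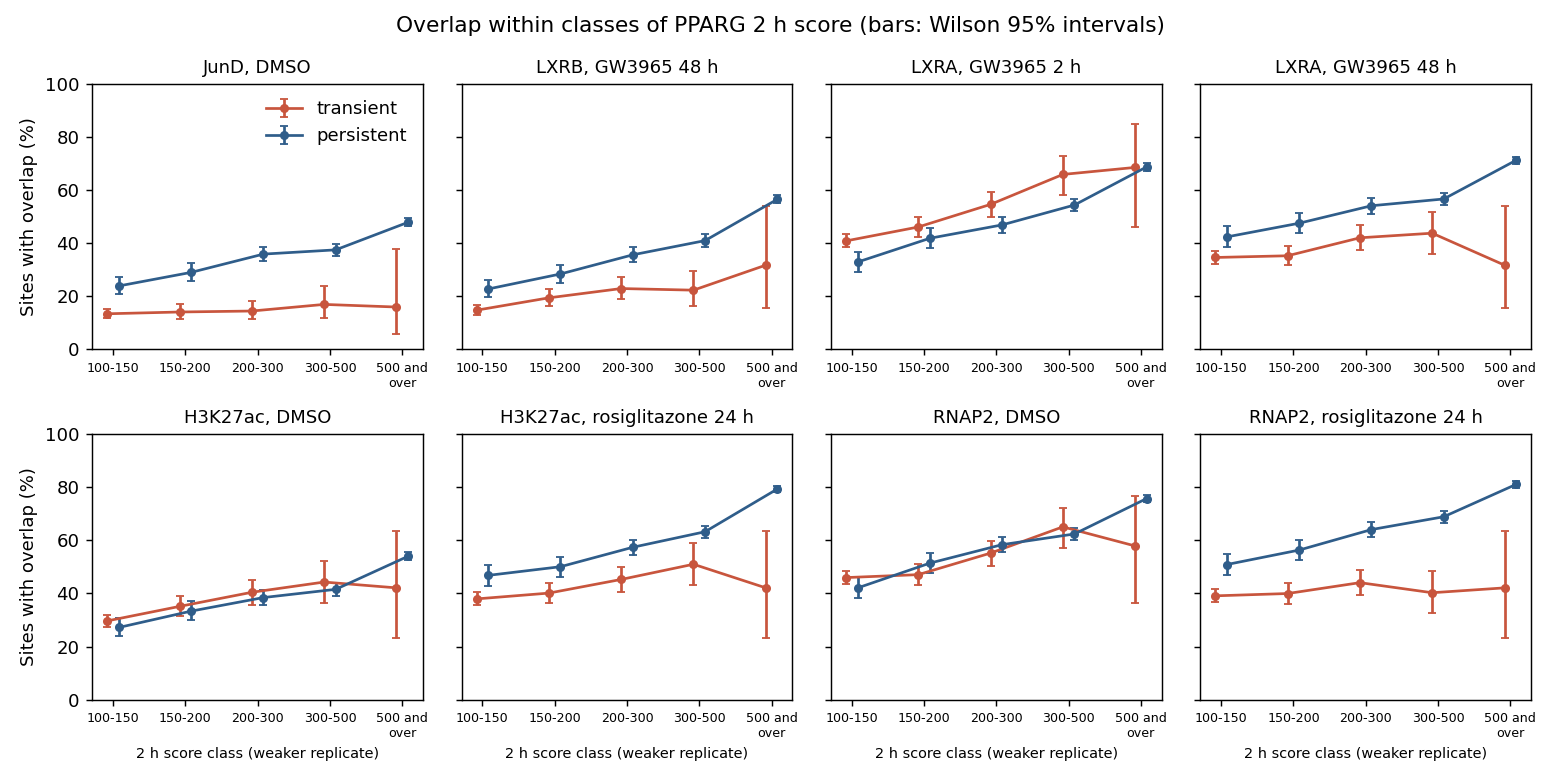
Percentage of transient and persistent sites with an overlap (y axis) by class of the weaker 2 h PPARG score (x axis) for 8 factors or marks, where bars are Wilson 95% intervals. The 2 curves stay apart for JunD and for H3K27ac and RNAP2 after 24 h of rosiglitazone and run together for H3K27ac and RNAP2 with DMSO.

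The persistent sites were also weighted to the score and width classes of the transient sites. The weighted persistent share was 24.8% for JunD, 23.4% for LXRB at 48 h and 41.9% for LXRA at 48 h. The transient minus weighted share was -11.1, -5.99 and -5.67 points for these. In single libraries it was -10.6 and -11.2 points for JunD, -6.36 and -3.40 for LXRB at 48 h and -4.44 and 0.419 for LXRA at 48 h. For H3K27ac the weighted share was 25.8% with DMSO, a difference of 7.52 points, and 44.6% after 24 h of rosiglitazone, a difference of -4.38 points. In single libraries these differences were 8.16 and 8.88 points with DMSO and -6.70 and -1.41 points after 24 h of rosiglitazone. For RNAP2 it was 43.2% with DMSO, a difference of 5.48 points. After 24 and 48 h of rosiglitazone it was 51.1% and 41.4%, with differences of -10.9 and -13.8 points. In single libraries the RNAP2 differences were 4.998 and 11.2 points with DMSO, -9.40 and -4.70 after 24 h and -13.1 and -4.78 after 48 h of rosiglitazone. LXRA at 2 h was 11.3 points higher at transient sites than the weighted 34.2%, and 16.9 and 11.4 points in single libraries. For LXRB at 2 h the difference was -2.11 points, but 3.33 in replicate 1 and -3.07 in replicate 2, so its sign depended on the library. With this weighting the transient minus persistent difference was -4.65 points ± 2.27 with rosiglitazone and 7.19 ± 2.17 with GW3965 for H3K27ac, and -8.00 ± 4.05 and 4.91 ± 4.99 for RNAP2 (n = 4 each; exact permutation test, p = 0.0286 for each, unadjusted). The weighting was chosen after the data had been seen. It used the PPARG scores, and the classes were chosen by PPARG peaks with rosiglitazone. The weighted contrast of drugs thus has the same limit as the unweighted one.

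Where a factor or mark was present at a transient site, the median rank of its peak within its own library lay between 37.7% (LXRB at 48 h, replicate 1) and 66.0% (LXRA at 2 h, replicate 1), where 100% is the highest peak. JunD peaks at transient sites lay at a median rank of 47.4 and 46.0% of their libraries, against 66.5 and 68.2% at persistent sites. H3K27ac peaks with DMSO lay at 54.5 and 56.4%, close to the 58.8 and 56.8% at persistent sites. After 24 h of rosiglitazone the H3K27ac ranks were 54.7 and 55.5% at transient and 68.7 and 69.3% at persistent sites. RNAP2 peaks with DMSO lay at 49.0 and 53.0% against 71.7 and 67.6%.

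Combinations showed how the members divided. No site of any other factor or mark overlapped 676 of them (24.5%), against 12.2% of persistent and 14.8% of all 2 h sites. All 15 overlapped 17 transient sites, against 931 of the 7921 persistent sites. Among these 676, chr20:62908882-62909885, chr7:18248371-18249158 (scores 948 and 527) and chr2:26478444-26479181 (518 and 527) scored highest. The chr20 site still had peaks of single replicates, as given above, and the chr7 site had LXRA peaks in 1 replicate at 2 h (145) and at 48 h (125). The chr2 site had no peak in any library of the other factors and marks. H3K27ac and RNAP2 were both present with DMSO at 750 transient sites (27.2%), H3K27ac alone at 169 (6.14%) and RNAP2 alone at 592 (21.5%). The shares in the same order were 40.8, 4.56 and 25.05% of persistent sites and 38.03, 4.78 and 24.95% of all 2 h sites.

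JunD and LXRB at 48 h met at 148 transient sites (5.37%) and at 31.8% of persistent sites, beside 24.6% of all. The highest of these were chr5:156105286-156106034 (557 and 521), chr15:67095123-67096164 (492 and 515) and chr3:158440631-158441690 (455 and 451). The last held 14 of the 15 factors and marks by condition. Transient sites with JunD had RNAP2 with DMSO in 83.1% and after 24 h of rosiglitazone in 85.2%, and in 52.0% after 48 h. Persistent sites with JunD had it in 94.8, 97.6 and 93.3%. After 24 and 48 h of GW3965, RNAP2 was at 62.8 and 48.8% of transient and 84.3 and 79.3% of persistent sites with JunD.

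The RNA of the bound receptor was measured at 24 and 48 h, not at 2 h. PPARG fell with rosiglitazone. At 24 h it was 45.5, 41.8, 46.5 and 47.4 CPM with DMSO and 30.4, 32.3, 30.6 and 35.2 CPM with rosiglitazone, so the groups did not overlap (log2 fold change -0.50 ± 0.071 SE, adjusted p = 3.84e-05, edgeR quasi-likelihood test). At 48 h it was 85.2, 76.2, 81.8 and 80.5 CPM with DMSO and 50.3, 55.1, 67.5 and 61.1 CPM with rosiglitazone, again without overlap (-0.47 ± 0.076, adjusted p = 7.36e-05). Genes that were lower at an adjusted p under 0.01 made up 6.52% of the 21781 genes tested at 24 h and 13.1% of 22470 at 48 h, and genes that were higher 5.81% and 12.3%. With library sizes alone as the scale, the calls split 743 higher to 2209 lower at 24 h and 1374 to 5459 at 48 h, against 1266 to 1421 and 2771 to 2949, and PPARG was lower under each scale. A lower level in bulk RNA cannot tell fewer expressing cells from less RNA per cell.

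Of 4 tested genes of RXR and LXR, 1 rose at 24 h and 2 at 48 h, and none fell. The median log2 fold change of the 4 was 0.13 and 0.17. NR1H3, the gene of LXRA, rose from 71.9 ± 3.54 to 126 ± 5.89 CPM at 24 h (SD, n = 4; log2 fold change 0.81 ± 0.080 SE, adjusted p = 3.48e-07 in edgeR) and from 76.1 ± 6.77 to 162 ± 2.99 CPM at 48 h (1.09 ± 0.062, adjusted p = 9.28e-11). NR1H2, the gene of LXRB, rose at 48 h by 0.26 ± 0.056 (edgeR adjusted p = 0.0012), a call that was lost with library sizes alone (0.078, adjusted p = 0.26). RXRA and RXRB had log2 fold changes of 0.06 to 0.11 with adjusted p of 0.251 or more in edgeR, negative at 48 h with library sizes alone (-0.12 and -0.098), and RXRG had no read in these libraries.

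JUND was not called at either time. At 24 h its log2 fold change was 0.13 ± 0.11 (edgeR adjusted p = 0.468) and at 48 h 0.30 ± 0.10 (adjusted p = 0.0229), where DESeq2 gave 0.32 with an adjusted p of 0.00863. Among 7 tested AP1 genes including JUND, 3 rose at 24 h (FOS, FOSL1 and FOSL2) and 4 at 48 h (these and JUN), and none fell. FOS went from 23.7 ± 1.61 to 51.3 ± 5.40 CPM at 24 h (log2 fold change 1.11 ± 0.082, edgeR adjusted p = 7.28e-09) and from 114 ± 2.90 to 214 ± 54.2 CPM at 48 h. FOSL1 rose by 0.49 ± 0.079 and 1.14 ± 0.079 on the log2 scale at 24 and 48 h. JUN had a log2 fold change of 0.30 ± 0.092 at 24 h (edgeR adjusted p = 0.0231) and rose by 0.91 ± 0.071 at 48 h. FOSL2 rose by 0.45 ± 0.099 at 24 h (edgeR adjusted p = 0.00255), which passed 0.01 no longer when DMSO replicate 3, rosiglitazone replicate 1 or rosiglitazone replicate 3 was left out (adjusted p = 0.0108, 0.0113 and 0.0106).

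**Figure D5:**
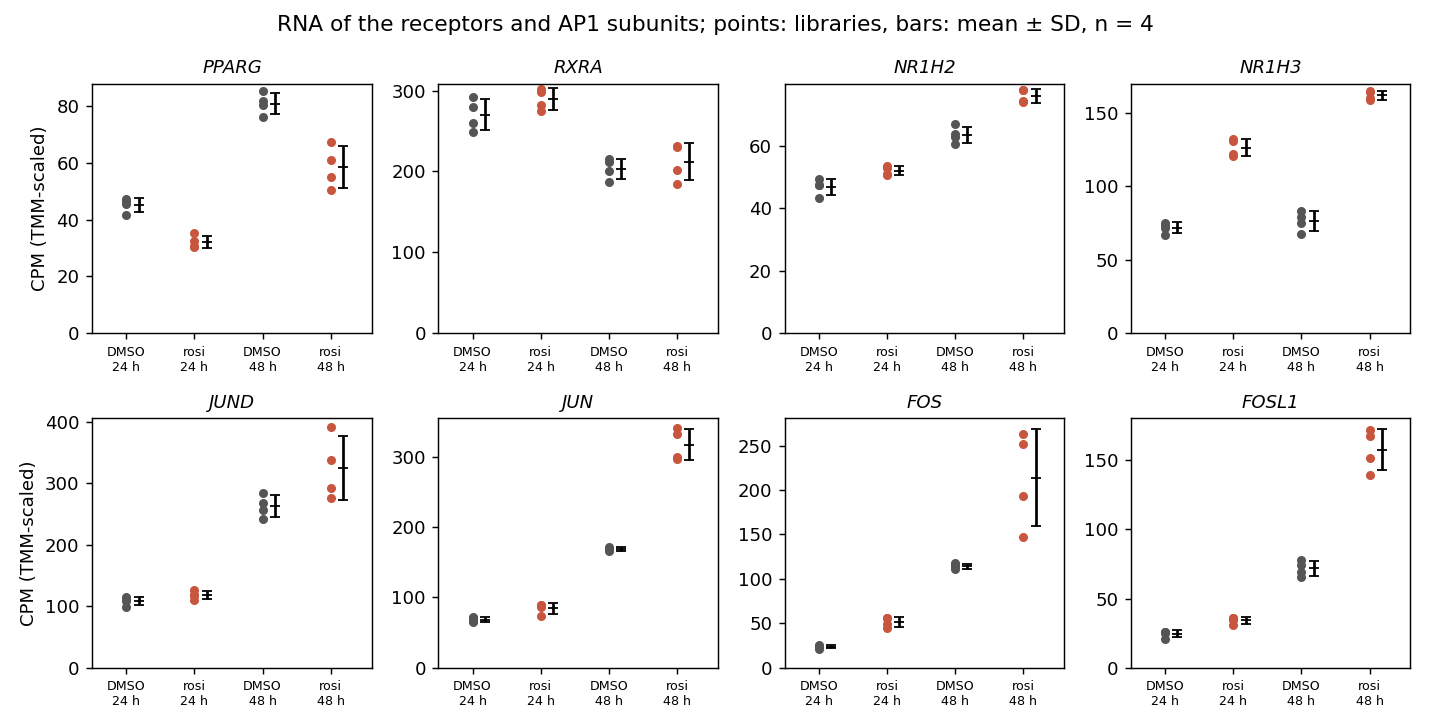
RNA level in CPM (y axis) of PPARG, RXRA, NR1H2, NR1H3, JUND, JUN, FOS and FOSL1 with DMSO or rosiglitazone at 24 and 48 h (x axis), where points are libraries and bars are mean ± SD of 4. PPARG lies lower with rosiglitazone at both times and NR1H3 higher, with no overlap between groups.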

How the data were processed

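The PPARG sites, their classes and the gene lists were chosen with earlier results of these data known. The submitters' processing notes name Bowtie and MACS for ChIP-seq, TopHat and Cufflinks for RNA-seq and the build hg19, with no versions. The authors ran MACS on each replicate separately, with a control library. The score in the deposited peak files equals -10 log10(p). The RNA-seq tables of the authors hold raw read counts for Ensembl genes.

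Overlaps needed 1 bp. Intervals are Wilson intervals at 95%. Shares in single libraries were compared by two-sided exact permutation tests, adjusted by Benjamini-Hochberg over 4 tests, in Python 3.11.15 with scipy 1.17.1. Genes were fitted with edgeR 4.0.16 in R 4.3.3 (all 16 libraries of a time point, filterByExpr, TMM, quasi-likelihood test) and called at an adjusted p under 0.01, with DESeq2 1.42.0 as an alternative. RNA-seq libraries held 21044798 to 51332656 counts. The scripts were tested on simulated data.

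Named sites were the 6 transient sites with the highest weaker score, at most 1 a chromosome, the 3 transient and 3 persistent sites nearest to the limit of the rule, and the 3 highest with LXRB and JunD and with no other site. Libraries with T0901317, another LXR agonist, entered the gene fits only, and H3K36me3 and input libraries were not used here. Further alternatives chosen after seeing the data are named as such. No hg19 genome was used, so motifs and nearby genes were not analysed here.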

Additional observations from a re-analysis of the deposited data

Results flagged for a closer look

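Among 56 groups of 4 libraries, 4 held 1 library far from the other 3, where chance would pick about 1 group in 20. RNAP2 peaks overlapped 49.2% of the transient sites in replicate 1 at 24 h of GW3965, against 36.2 to 37.5% in the other GW3965 libraries. RXRB was at 43.4 CPM in 1 DMSO library at 24 h and at 44.4 to 44.6 CPM in the others. JUNB was at 72.2 CPM in 1 rosiglitazone library at 24 h and at 63.7 to 64.8 CPM in the others. FOSB was at 13.9 CPM in 1 DMSO library at 48 h and at 12.5 to 12.7 CPM in the others.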

How the results depend on the processing

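Of 446 recomputed values on sites and shares, 225 moved by less than the spread between replicates, 205 by more and 16 changed sign, each of these under the weighting below. The number of transient sites was 1690 with scores of at least 200, 6328 with a 48 h site of both replicates required for removal, 637 with equal peak numbers in the PPARG libraries, and 2963 to 9727 with 1 PPARG library left out. Under the first 3 of these settings, in this order, the transient minus persistent difference was -19.2, -14.5 and -25.6 points for JunD, -20.5, -15.1 and -18.0 for LXRB at 48 h, and -23.6, -17.8 and -18.0 for H3K27ac after 24 h of rosiglitazone. For RNAP2 after 24 h of rosiglitazone it was -16.8 and -25.1 under the 48 h rule and equal peaks. With 1 PPARG or mark library left out, it ranged from -28.0 to -13.2 for JunD, -30.6 to -13.5 for LXRB, -31.3 to -15.6 for H3K27ac and -34.0 to -14.4 for RNAP2 (-27.9 for JunD and -24.2 for RNAP2 without replicate 1 of the mark). With persistent sites weighted by score, width, or both, chosen after seeing the data, it was -13.8, -13.6 and -11.1 for JunD, -9.62, -10.7 and -5.99 for LXRB, -9.98, -5.50 and -4.38 for H3K27ac, and -15.2, -15.4 and -10.9 for RNAP2. Under the same weightings it turned positive for LXRA at 2 h (7.24, 6.31 and 11.3 points), H3K27ac with DMSO (2.16, 8.65 and 7.52) and after 24 h of GW3965 (0.846, 7.03 and 6.03), and RNAP2 with DMSO (0.784, 1.54 and 5.48). It also turned with width and with both for H3K27ac after 48 h of GW3965 (6.47 and 5.35), and with both for RNAP2 after 24 and 48 h of GW3965 (1.98 and 2.06). Without 48 h replicate 1 of PPARG it was -2.57 for LXRA at 2 h, -7.97 for LXRA at 48 h, -3.96 for H3K27ac with DMSO and -4.29 for RNAP2 with DMSO. With equal peaks per PPARG library it was -1.74, -14.3, -0.585 and -6.90 for these. The causes were not tested.

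The rosiglitazone minus GW3965 value at transient sites, which passed no test, changed sign for H3K27ac with 24 h libraries alone (1.27 points), scores of at least 200 (2.75), equal peaks per H3K27ac library (0.154), removal by a 48 h site of both replicates (3.63) and equal peaks per PPARG library (2.04, a test chosen after seeing the data), and ranged from -1.49 to 0.8291 with 1 library left out (0.272, 0.8291 and 0.566 without rosiglitazone 24 h replicate 1, rosiglitazone 48 h replicate 2 or GW3965 48 h replicate 1). For RNAP2 it was -0.263 with equal peaks per library and 1.58 to 8.42 with 1 library left out. The difference of -14.4 (H3K27ac) and -11.7 points (RNAP2) between drugs in transient minus persistent shares had p = 0.125 by sign-flips in the replicate block, the smallest that exact permutation of 4 pairs allows. With 1 library left out it ranged from -15.6 to -13.3 and from -13.7 to -9.56, where p cannot go below 0.0571. The numbers pair these libraries only by label.

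For RNA, 323 of 336 recomputed values kept direction and call. JUND at 48 h was called with DESeq2 (0.32) and, with 1 library left out, ranged from 0.20 to 0.37, called without rosiglitazone replicate 4. PPARG ranged from -0.54 to -0.47 at 24 h and -0.54 to -0.40 at 48 h, called each time. Scaling by library size alone shifted the median gene by -0.18 at 48 h and turned RXRA (-0.12), RXRB (-0.098), JUNB (-0.063) and FOSB (-0.0031), none called, and calls split 1374 higher to 5459 lower against 2771 to 2949. JUNB at 48 h ranged from -0.012 (without rosiglitazone replicate 1) to 0.24. JUN at 24 h was called in rosiglitazone and DMSO libraries alone and without rosiglitazone replicate 2. Same-numbered RNA-seq libraries correlated between -0.0459 and 0.0792, so the numbers do not pair them, and the replicate block changed no call named here (2428 calls at 24 h against 2687). Genes near sites were not run.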

Other observations

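Sites with an LXR site differed from those without one, among transient and among persistent sites. Of 1526 transient sites with LXRA or LXRB at any time, 21.4% held JunD, 45.5% H3K27ac with DMSO and 73.9% RNAP2 with DMSO. Of 1228 without, the shares were 4.23, 18.3 and 17.4%. Of 5501 persistent sites with an LXR site, they were 56.0, 57.0 and 86.4%. At persistent sites without any LXR site they were 5.04, 19.0 and 19.3%, with Wilson 95% intervals that overlapped those of transient sites without one. H3K27ac after 24 h of rosiglitazone was 26.2% (23.8 to 28.8) at transient and 43.1% (41.2 to 45.1) at persistent sites without any LXR site. The split was chosen after the data had been seen and no test was run over libraries.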
